A study of Pimephales promelas and Coturnix japonica and Xenopus laevis with 724 samples.

Results

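Liver of adult Japanese quail (Coturnix japonica) exposed to fluoxetine, given as flx in the labels, was compared between the level labelled HIGH and the level labelled MED. The members were the 10 libraries of the adult quail fluoxetine table that carry a sample label, 5 at HIGH and 5 at MED, of 724 libraries in the series. The series exposed adults or embryos of 6 vertebrate species to environmental chemicals at several levels and sequenced RNA. The labels give the 10 libraries as total RNA of liver at the adult stage and give no dose, unit, exposure time, sex or strain for either level. Both levels were exposed, and the labels name no control among these libraries, so the values describe the difference between the levels and not the difference of either from unexposed birds. The table holds 5 further columns with no labelled sample, which were not used here.

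Fluoxetine is an antidepressant that blocks the serotonin transporter, and it is found in wastewater. In vertebrates the liver takes up the drug and converts it to norfluoxetine by cytochrome P450 enzymes, and both compounds slow some of these enzymes in people. Fluoxetine is a cationic amphiphilic compound, a kind of drug known in mammals for collecting in lysosomes with phospholipid. Liver is built mostly of hepatocytes, which make plasma proteins, lipoproteins and, in laying birds under oestrogen, the precursors of egg yolk.

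Counts were given for 19455 identifiers with the prefix s2f. The files do not pair them with gene names, and 0 of them matched the reference table of 64593 genes, so no gene, pathway or marker of a cell type could be looked up. Results are given by identifier for 2 that were higher and 2 that were lower at HIGH, and otherwise by rank, by count and by lists built from other tables of the series. In bulk liver, fewer cells of a type and less RNA per cell cannot be told apart. Nothing in the labels says that the 5 libraries of a level came from separate birds, so the p-values reflect how far these libraries spread, and that spread could be technical.

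Total counts ran from 12309657 in MED 3 to 49078234 in MED 4, with 12460644 to 25393039 at HIGH. Identifiers at 1 CPM (counts scaled to a common library total) or more numbered 10266 to 10749 at HIGH and 10266 to 10433 at MED, a difference in means of 172 (exact permutation test, two-sided, p = 0.103, adjusted p = 0.172 over 5 library values). The smallest p that 5 against 5 libraries allow in this test is 0.00794. The mean total count was 17325000 ± 5153000 at HIGH (SD, n = 5) and 22909000 ± 15010000 at MED (SD, n = 5), where MED 4 widened the spread. The levels did not differ in total count by the exact permutation test (p = 0.571, adjusted p = 0.571).

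Libraries HIGH 1 and HIGH 2 stood apart from the other 8, and the counts of calls and the list medians are given with and without them. On the first principal component, which took 37.2% of the variance of the 500 most variable identifiers, HIGH 1 scored 41.8 and HIGH 2 scored 28.6. The remaining 3 HIGH libraries scored 0.11, -9.51 and -10.8, and the 5 MED libraries scored -0.96, -16.3, -11.5, -12.3 and -8.997. So 3 of the 5 HIGH libraries lay within or near the MED range on this axis. The difference in mean score was 20.03 (exact permutation p = 0.0794, adjusted p = 0.172). On the second component, with 13.5% of the variance, the HIGH libraries scored 1.55, -3.31, 6.61, 10.5 and 23.9, and the MED libraries -7.83, -10.8, -12.4, 3.93 and -12.1. The levels separated on this axis apart from an overlap between HIGH 1, HIGH 2 and MED 4 (difference 15.7, exact permutation p = 0.0238, adjusted p = 0.119). The sign of a component is arbitrary. The first was turned to make HIGH 1 positive and the second to make the HIGH mean the higher, so neither direction is a result. None of the 5 library values passed the threshold of 0.05 after adjustment.

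**Figure D1:**
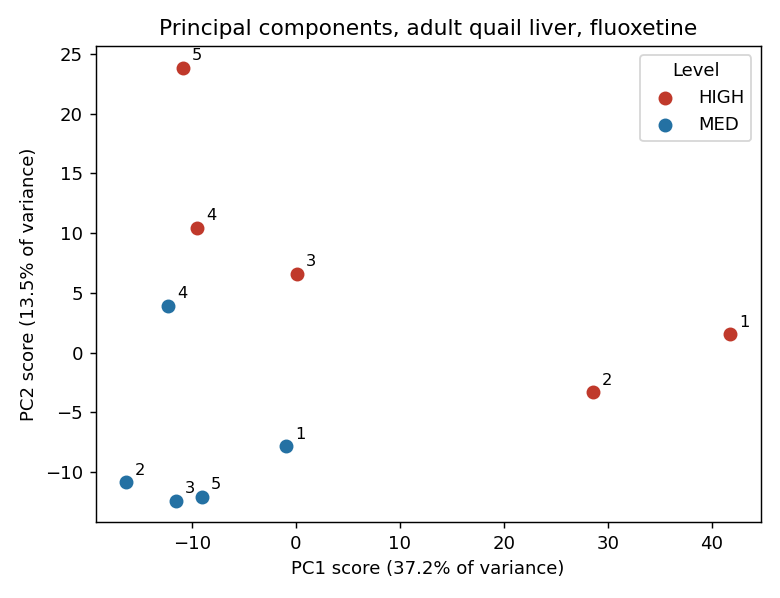
Scores of the 10 libraries on the first 2 principal components (x axis, PC1, 37.2% of the variance; y axis, PC2, 13.5%), red for HIGH and blue for MED, with the replicate number beside each point. HIGH 1 and HIGH 2 lie at 41.8 and 28.6 on PC1, and the other 8 libraries lie between -16.3 and 0.11.

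The log2 CPM of these libraries correlated at r = 0.980 across identifiers, which are not independent replicates, against 0.968 or less for every other pair. They were not the same library: their counts differed by a chi-square of 43.3 per degree of freedom. On that measure MED 3 and MED 5, at 35.5, and MED 2 and MED 3, at 42.6, had lower values. The measure grows with the library totals, so it does not rank the pairs by closeness. Those totals were 17162978 and 18337094 in HIGH 1 and HIGH 2, and 19890212, 12309657 and 13777730 in MED 2, MED 3 and MED 5. Both lay above all other 8 libraries for 1421 identifiers (12.6% of 11261) and below them for 1283 (11.4%). The gap was at least 4-fold for 21 identifiers above and 4 below.

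The counts of HIGH 1 and HIGH 2 were also spread differently over the abundant identifiers. The 10 leading identifiers of a library took 40.9% of its counts in HIGH 1 and 37.9% in HIGH 2. The share was 29.2%, 29.8% and 28.8% in HIGH 3 to HIGH 5 and 31.4%, 28.9%, 29.9%, 32.2% and 32.5% in MED 1 to MED 5. Each of these shares has a 95% binomial half-width of 0.0256 percentage points or less, which covers counting error only. In the other adult quail tables the highest shares were 39.1% in MED 4 of the table labelled tb and 36.2% in MED 2 of that labelled hbcd. A high share was thus not found in HIGH 1 and HIGH 2 alone. Between the levels the share differed by 2.35 percentage points (exact permutation p = 0.437, adjusted p = 0.546), with the HIGH mean raised by those 2 libraries.

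The identifier with the highest mean count was lowest in the same 2 libraries. It had 51667 CPM in HIGH 1 and 77954 in HIGH 2, then 163970, 165300 and 133584 in HIGH 3 to HIGH 5. The MED libraries had 171367, 155848, 159762, 193720 and 196712 CPM. HIGH 1, HIGH 2 and HIGH 5 lay below all MED libraries, and HIGH 3 and HIGH 4 lay among them. The difference between levels was -0.64 on the log2 scale, with an SE of 0.32 and an adjusted p of 0.313 (edgeR's quasi-likelihood test).

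The third most abundant identifier went the other way. It had 80563 and 64960 CPM in HIGH 1 and HIGH 2, against 13240, 13081 and 9869 in HIGH 3 to HIGH 5 and 11809 to 15795 at MED. Over all identifiers tested, HIGH 1 and HIGH 2 were above the other 8 libraries for 12.6% and below them for 11.4%. Among the 10 most abundant they were above for 7 and below for 2. The 10 were ranked with HIGH 1 and HIGH 2 included, so these counts only describe them. Of the 100 identifiers most abundant in adult quail controls of other tables, HIGH 1 and HIGH 2 were above for 16 and below for 50. The differences between levels for these 10 ran from -0.64 to 2.34 on the log2 scale, 5 had an unadjusted p below 0.05, and the lowest adjusted p was 0.172 (edgeR). These levels are not scaled by transcript length.

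The 21 identifiers above by at least 4-fold were then followed through the other adult quail tables, whose libraries played no part in choosing them. Their summed level was 179731 CPM in HIGH 1 and 148363 in HIGH 2, and between 18014 and 27740 in the other 8 fluoxetine libraries. Over the 86 labelled libraries of the other 7 chemicals it ran from 13068 to 143758 CPM, with a median of 22394. In these 86 libraries 2 exceeded 100000 CPM: MED 3 of the table labelled ee2, with 143758, and MED 4 of the table labelled tb, with 139597. The next highest, at 76601, was a library labelled as a control. The 16 labelled controls ran from 18307 to 76601 CPM with a median of 22550. Most of the sum in HIGH 1 and HIGH 2 came from 2 of the 21 members, both among the most abundant identifiers. One had 80563 and 64960 CPM there, and the other had 64518 and 58430 CPM. Sums near that of HIGH 2 thus also occurred in single MED libraries of 2 other chemicals. The members were not followed singly in those libraries, so the sum does not show that all 21 were high there.

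**Figure D2:**
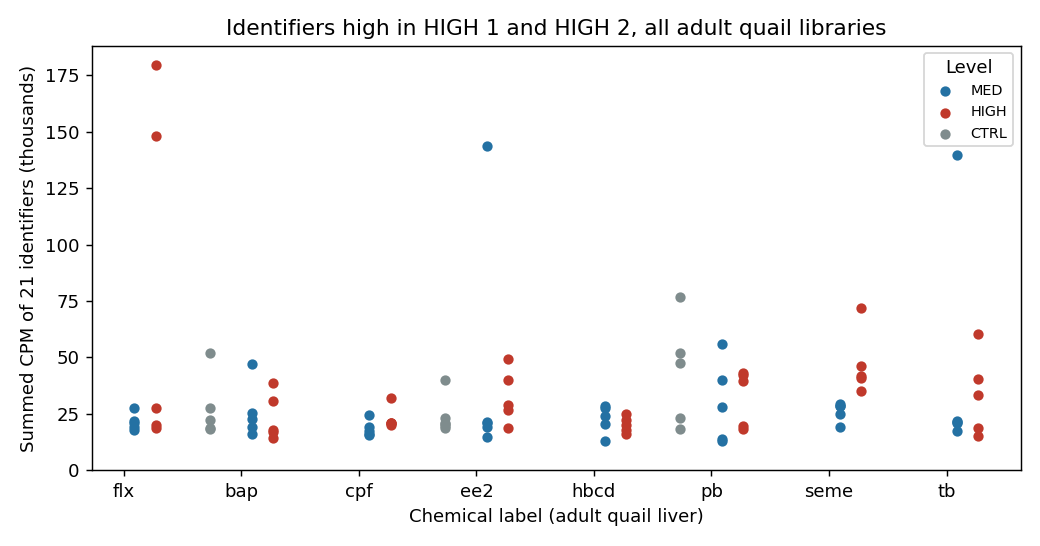
Summed CPM (y axis) of the 21 identifiers at least 4-fold higher in fluoxetine HIGH 1 and HIGH 2 than in the other 8 fluoxetine libraries, for every labelled adult quail library by chemical label (x axis) and level (grey control, blue MED, red HIGH). HIGH 1 and HIGH 2 reach 179731 and 148363 CPM, and 2 of the other 86 libraries exceed 100000.

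HIGH and MED were compared for 11261 identifiers that passed the filter on low counts. edgeR's quasi-likelihood test called 0 of them at an adjusted p below 0.05 (0%), and 2011 (17.9%) had an unadjusted p below 0.05. Of these 976 (8.67%) were higher at HIGH and 1035 (9.19%) were lower, and 80 had an unadjusted p below 0.001. The lowest adjusted p was 0.113, shared by 26 identifiers, and 777 had an adjusted p below 0.2. DESeq2 called 435 of 11914 (3.65%), 168 higher and 267 lower, limma-voom called 0, and edgeR with the spread estimated from all 96 labelled adult quail libraries called 172 of 12762 (1.35%), 81 higher and 91 lower. Without HIGH 1 and HIGH 2 these counts were 1 with edgeR, 154 with DESeq2 and 2 with the shared spread.

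The size of what could be seen was set by 5 libraries a level and a biological coefficient of variation of 0.297. The middle 95% of the differences lay between -0.75 and 1.01 on the log2 scale, around a median of 0.02. The 95% interval of a difference had a median half-width of 0.45, and for 8277 identifiers (73.5%) it lay wholly within a 2-fold change in either direction. For the other 2984 it reached past 2-fold, and a difference of that size was not excluded by the interval. A fitted difference of at least 2-fold was found for 422 identifiers, 286 higher and 136 lower at HIGH, and for 471 without HIGH 1 and HIGH 2, 330 higher and 141 lower.

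The 5 HIGH libraries lay wholly above the 5 MED libraries for 156 identifiers (1.39%), with a median difference of 0.66 on the log2 scale. They lay wholly below for 277 (2.46%), with a median of -0.49. These medians are over identifiers chosen for not overlapping and describe only those.

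Among the identifiers higher at HIGH, s2f_0001221011 had the smallest p. Its normalised level was 3.89, 4.86, 4.16, 2.69 and 4.38 CPM in HIGH 1 to HIGH 5 and 1.31, 1.41, 1.90, 1.91 and 1.77 CPM in MED 1 to MED 5. The levels did not overlap, and HIGH 4 was the HIGH library nearest to MED. The mean was 3.998 ± 0.81 CPM at HIGH (SD, n = 5) and 1.66 ± 0.28 CPM at MED (SD, n = 5). The log2 difference of 1.27 (SE 0.21, 95% interval 0.82 to 1.72) had an adjusted p of 0.113 in edgeR's quasi-likelihood test and did not pass the threshold. In the other 86 adult libraries the level ran from 0.98 to 28.5 CPM with a median of 3.24. The fluoxetine MED libraries all lay below that median, and the HIGH libraries lay on both sides of it. Levels of the 86 were scaled in the fit over all adult tables, so the scales are not quite the same.

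The next higher one was s2f_0002504006. Its level was 31.7, 31.4, 29.2, 23.1 and 14.1 CPM in HIGH 1 to HIGH 5, and 13.7, 7.89, 8.85, 11.7 and 8.01 CPM in MED 1 to MED 5. The levels did not overlap, although HIGH 5 and MED 1 lay close together. The log2 difference was 1.37 (SE 0.24, 95% interval 0.84 to 1.89, edgeR adjusted p = 0.113). The mean was 25.9 ± 7.47 CPM at HIGH (SD, n = 5) and 10.02 ± 2.55 CPM at MED (SD, n = 5), and the other 86 adult libraries ran from 7.06 to 99.01 CPM with a median of 14.4, so the levels of all 10 lay inside that range.

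Among the identifiers lower at HIGH, s2f_0009612002 had the smallest p. Its level was 7.66, 8.17, 8.61, 6.33 and 8.93 CPM in HIGH 1 to HIGH 5 and 19.3, 17.8, 13.0, 15.4 and 16.4 CPM in MED 1 to MED 5. All HIGH libraries lay below all MED libraries, with a gap between 8.93 and 13.0 CPM. The log2 difference was -1.05 (SE 0.14, 95% interval -1.36 to -0.74, edgeR adjusted p = 0.113). Over the other 86 adult libraries the level ran from 5.97 to 22.3 CPM with a median of 14.0, close to the MED mean of 16.4 ± 2.41 CPM (SD, n = 5) and above the HIGH mean of 7.94 ± 1.02 CPM (SD, n = 5).

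The other, s2f_0004971002, had the smallest spread of the 4. Its level was 13.9, 13.1, 13.8, 13.5 and 14.6 CPM in HIGH 1 to HIGH 5 and 19.9, 20.1, 19.8, 19.9 and 21.4 CPM in MED 1 to MED 5. The levels did not overlap, and HIGH 1 and HIGH 2 did not stand apart from the other HIGH libraries. The log2 difference was -0.55 (SE 0.09, 95% interval -0.75 to -0.35, edgeR adjusted p = 0.113). Over the other 86 adult libraries the level ran from 14.0 to 24.4 CPM with a median of 19.0.

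**Figure D3:**
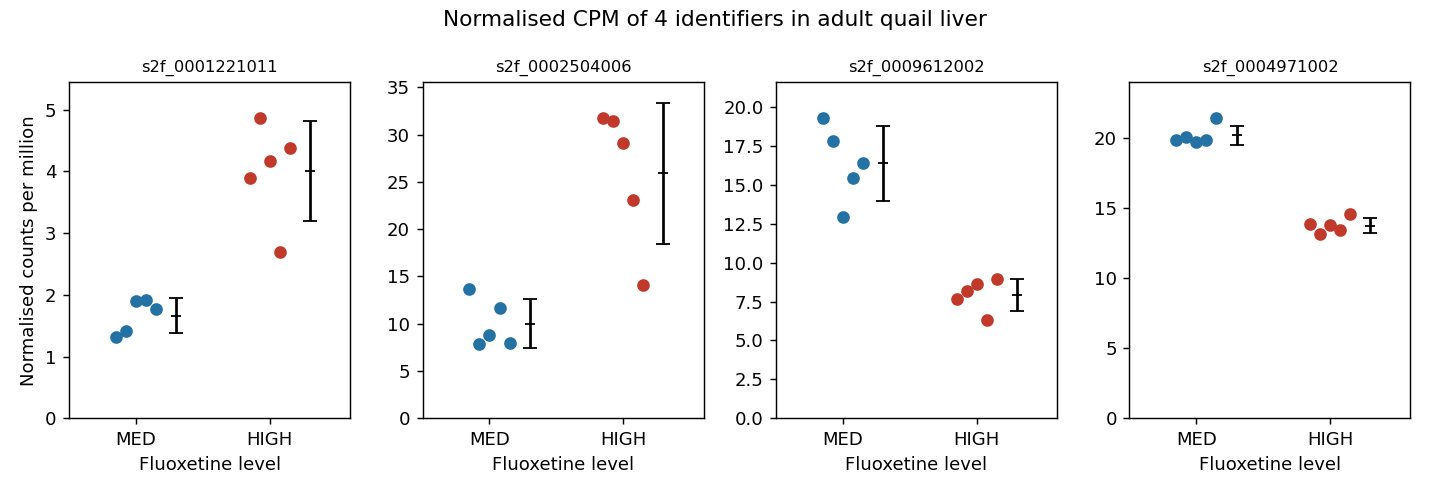
Normalised CPM (y axis) of the 4 named identifiers in each library, by fluoxetine level (x axis), with points in the order of replicates 1 to 5 and bars for the mean ± SD (n = 5). The levels do not overlap for any of the 4, and the adjusted p is 0.113 for each (edgeR's quasi-likelihood test).

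These 4 were the ends of a longer list. For the 20 identifiers with the smallest p among those higher at HIGH, the log2 difference ran from 0.63 to 3.15 with a median of 1.13, and 19 of the 20 did not overlap. For the 20 lower ones it ran from -1.54 to -0.52 with a median of -0.80, and 19 of the 20 did not overlap. Both sets were chosen by these same differences, so the counts describe them and test nothing. The mean level of the higher 20 lay between 1.61 and 122 CPM at HIGH and between 0.449 and 77.2 CPM at MED. The mean level of the lower 20 lay between 1.44 and 476 CPM at HIGH and between 3.37 and 917 CPM at MED. Their adjusted p ran from 0.113 to 0.123 and was 0.113 for all 20 lower ones (edgeR).

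Of the 25 identifiers that varied most over the 10 libraries, HIGH 1 and HIGH 2 were above the other 8 libraries for 9, which include the first 5, and below them for 0. Over all identifiers tested the shares were 12.6% above and 11.4% below. The 25 were ranked with HIGH 1 and HIGH 2 included, so these counts only describe them. The most variable one had 2960 and 1844 CPM in HIGH 1 and HIGH 2, 41.9, 10.9 and 14.3 in HIGH 3 to HIGH 5, and 1.61 to 21.2 at MED. The fifth most variable one had 8934 and 5434 CPM in HIGH 1 and HIGH 2, against 60.7 to 189 in the other HIGH libraries and 29.1 to 83.5 at MED. Both were far above every other library in the same 2 libraries. For both, HIGH 4 and HIGH 5 lay within the MED range, and HIGH 3 lay above every MED library.

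The sixth most variable identifier was within the MED range in HIGH 1 and HIGH 2 and below it in HIGH 3 to HIGH 5. It had 68 and 88 counts in HIGH 1 and HIGH 2, 0 counts in HIGH 3, HIGH 4 and HIGH 5, and 141, 112, 58, 417 and 52 counts in MED 1 to MED 5. A count of 0 allows up to 0.118, 0.226 and 0.241 CPM in HIGH 3, HIGH 4 and HIGH 5, scaled by the total count alone. The other 7 libraries had 4.01 CPM or more on the normalised scale, which also takes TMM factors. In all, 73 identifiers had at most 2 counts in some libraries and at least 30 in others, and this one was the 1 among them low in just those 3 libraries. The edgeR test gave it an unadjusted p of 0.105 for HIGH against MED.

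To ask whether the difference between the levels was that of any 2 levels of exposed quail, the other adult quail tables were tested in the same way. HIGH against MED had an unadjusted p below 0.05 for 5.52% of identifiers with bap, 2.28% with cpf, 6.47% with ee2, 5.2% with hbcd, 7.19% with pb, 6.39% with tb and 16% with seme. The fluoxetine share was 17.9% with all libraries, above every other table. Without HIGH 1 and HIGH 2 it was 11.7%, below the seme share and above the other 6. Leaving out 1 library, the fluoxetine share ran from 12.1% without HIGH 2 to 21% without HIGH 5. It was also below 16% without HIGH 1, MED 1, MED 2, MED 3 or MED 5. No library was left out of the other tables, so orders taken after leaving out fluoxetine libraries do not compare like with like. The single MED libraries of ee2 and tb with high summed levels, described above, stayed in. With seme 55 identifiers were called (0.473%), and the other 6 tables gave 0 calls each at an adjusted p below 0.05 (edgeR). These shares are descriptions, since identifiers of a library move together.

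**Figure D4:**
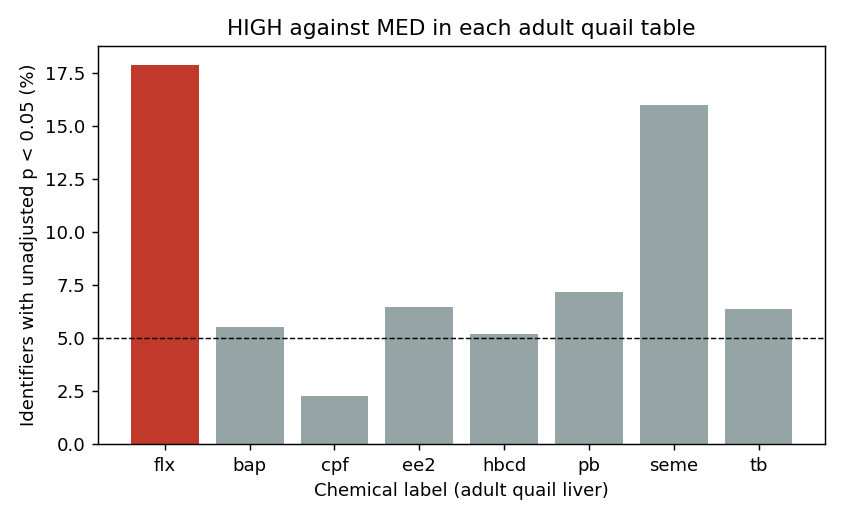
Share of identifiers with an unadjusted p below 0.05 for HIGH against MED (y axis, percent; edgeR) in each adult quail liver table (x axis, chemical label), red for fluoxetine and grey for the other 7, with a dashed line at 5%. Fluoxetine has 17.9%, seme 16%, and the other 6 lie between 2.28% and 7.19%.

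The fluoxetine difference was then tested against the mean difference of the other 7 chemicals in 1 fit over the 96 libraries. It differed for 177 of 12762 identifiers (1.39%), with 77 (0.603%) higher and 100 (0.784%) lower at fluoxetine HIGH relative to the other tables (edgeR, adjusted p below 0.05). The median of the tested quantity, a difference of log2 differences, was 1.46 for the higher and -0.62 for the lower ones. This test shares the 10 fluoxetine libraries with the comparison above and is no independent support for it. The single MED libraries of ee2 and tb with high summed levels stayed in the mean of the other 7. Their effect on this count was not tested. When HIGH 1 and HIGH 2 were left out the count was 3, all lower. The count was 20 without HIGH 1 alone, 28 without HIGH 2, 412 without HIGH 5, 112 without MED 1, 47 without MED 2, 77 without MED 3 and 70 without MED 5.

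Of the 77 and 100, 70 and 100 were also tested within the fluoxetine table. The pair HIGH 1 and HIGH 2 lay above all other 8 libraries for 58 of the 70 and below them for 54 of the 100. Over all identifiers tested the shares were 12.6% above and 11.4% below. The calls were made with HIGH 1 and HIGH 2 included, so a larger share follows in part from that choice. Over the 70, the median log2 difference fitted by edgeR with all libraries was 1.22. For HIGH 3 to HIGH 5 against MED, the median difference of mean log2 levels, with a pseudocount of 0.5 CPM, was 0.42. Over the 100 these values were -0.58 and -0.45. The values of a pair are different measures, so the gap between them does not give the effect of leaving out HIGH 1 and HIGH 2 alone. These identifiers were called with HIGH 3 to HIGH 5 included, so the second value of each pair describes them and tests nothing.

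Of the 4 named identifiers, 3 differed from the other chemicals. The difference of log2 differences was -1.15 for s2f_0009612002 (SE 0.24, adjusted p = 0.00461), -0.52 for s2f_0004971002 (SE 0.10, adjusted p = 0.00181) and 1.40 for s2f_0002504006 (SE 0.39, adjusted p = 0.0490), all by edgeR. Without HIGH 1 and HIGH 2 these were -1.16, -0.52 and 1.16, with adjusted p of 0.102, 0.0612 and 0.331 (edgeR). For s2f_0001221011 the value was 1.91 (SE 0.66, edgeR adjusted p = 0.11), and its own log2 ratio of mean levels in the other tables ran from -1.66 with hbcd to 0.34 with cpf. The log2 ratio of s2f_0009612002 ran from -0.03 with pb to 0.32 with cpf, and that of s2f_0004971002 from -0.19 with ee2 to 0.10 with bap. That of s2f_0002504006 ran from -1.315 with tb, at 20.02 CPM for HIGH and 49.8 for MED, to 0.47 with hbcd.

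The pb table calls for care in this set, because its counts recur at another stage. Its 10 MED and HIGH libraries hold the same counts for all 18350 identifiers as the quail table labelled pb at the early-life stage. Over the 15 labelled libraries of the adult table, a list of identifiers high in early-life quail summed to 9.63 to 132 CPM. The other adult libraries had 7.99 to 387 CPM and early-life fluoxetine libraries 1995 to 2545 CPM. The sums in the pb table thus lay within the range of the other adult libraries. The controls of that table were among the adult controls used to build the list, so the check is not independent of them. With pb left out, 90 identifiers differed, of which 89 were among the 177.

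The early-life quail liver table for fluoxetine has HIGH and MED libraries too, 5 each, and was used to ask whether the stages differed. The labels do not say whether the levels are the same dose at both stages, and stage and table are the same split. edgeR called 0 of 12551 identifiers (0%) between the levels in early-life liver, with 548 (4.37%) at an unadjusted p below 0.05. The test of the difference between the stages called 0 of 12871 (0%), with 1595 (12.4%) at an unadjusted p below 0.05 and a lowest adjusted p of 0.0925 (edgeR), and DESeq2 called 126. That edgeR count was 48 without HIGH 5, 3 without MED 1, 1 without MED 5 and 1 without HIGH 1 and HIGH 2 together.

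Of the 80 identifiers with an unadjusted p below 0.001 in adults, 75 were tested at the early-life stage, and 39 of them (52%) had the same sign there. Their median absolute log2 difference was 0.76 in adults, and taken in the adult direction it was 0.01 in early-life liver. These identifiers were chosen by the adult difference, so the adult value is large by that choice and the 2 values do not test a difference between stages. The share with the same sign over all identifiers was not taken. In early-life liver s2f_0002504006 had 6.33, 5.03, 4.73, 6.24 and 5.26 CPM at HIGH and 7.85, 6.92, 6.86, 4.65 and 6.23 CPM at MED. The groups overlapped, with a log2 difference of -0.23 (SE 0.16), and its difference from the adult value, 1.601, had an adjusted p of 0.0925 (edgeR). For s2f_0009612002 the early-life log2 difference was -0.14 (SE 0.12), and its difference from the adult value was -0.91 (edgeR adjusted p = 0.131).

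Lists of identifiers taken from other tables stood in for gene groups. They were the identifiers most abundant in adult quail controls, most variable in them, higher in adult than in early-life quail controls and the reverse, higher in adult minnow liver than in minnow embryo controls and the reverse, raised by ethinylestradiol (ee2, a synthetic oestrogen) in early-life quail, and raised by benzo[a]pyrene (bap, which acts through the aryl hydrocarbon receptor) in both minnow and clawed frog embryos. No list had a member called between HIGH and MED in the fluoxetine table alone at an adjusted p below 0.05 (edgeR; 0% of all identifiers, with DESeq2 calling 435 over the table). Against the mean of the other 7 chemicals, members were called by edgeR: 5 higher and 1 lower of 100 in the list high in adult quail, 3 lower of 100 in the abundant list, 3 higher and 4 lower of 102 for benzo[a]pyrene, 4 higher and 1 lower of 100 in the variable list, 3 higher of 80 for minnow liver and 2 higher of 95 for ethinylestradiol, against 0.603% higher and 0.784% lower of all identifiers, a test that gave 3 calls in all without HIGH 1 and HIGH 2.

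As a check on the liver label, the list high in adult minnow liver against embryos summed to 60184 to 172178 CPM in the 10 libraries, and the list high in minnow embryos to 54.9 to 201 CPM. The list high in early-life quail summed to 10.3 to 32.8 CPM. The libraries thus carried the identifiers of the liver list at far higher levels than those of the embryo list. A check against named hepatocyte genes was not possible without gene names.

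The list high in adult quail had 99 tested members. At an unadjusted p below 0.05, 17 (17.2%) were higher and 14 (14.1%) were lower at HIGH, against 8.67% and 9.19% of all identifiers. Its median log2 difference was -0.21, against 0.02 over all identifiers, and it ran from -0.28 to -0.12 leaving out 1 library. Its summed level was 203949 and 181896 CPM in HIGH 1 and HIGH 2, 87929, 86680 and 79963 CPM in HIGH 3 to HIGH 5, and 80454 to 94718 CPM at MED. The sum was high in HIGH 1 and HIGH 2, and 3 members carried 97.4% of that gap. With these 3 left out the sum was 49725 and 51140 CPM there, inside the range of 38316 to 58584 CPM in the other 8 libraries.

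The minnow liver list had 74 of 200 members tested, with 11 (14.9%) higher and 16 (21.6%) lower at an unadjusted p below 0.05. Its median was -0.13, from -0.21 to -0.08 leaving out 1 library. Its sum was 172178 and 151854 CPM in HIGH 1 and HIGH 2 and 60184 to 80128 CPM in the other 8 libraries. Of this gap 3 members carried 98.8%, and without them the sum was 45923 and 46801 CPM in HIGH 1 and HIGH 2 and 37352 to 51657 CPM in the others.

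The list variable in adult controls had 87 members tested, with 13 (14.9%) higher and 11 (12.6%) lower at an unadjusted p below 0.05. Its median was -0.003, from -0.17 without HIGH 3 to 0.045 leaving out 1 library, so its sign was not stable. Its sum was 16547 and 13164 CPM in HIGH 1 and HIGH 2 and 2317 to 3496 CPM elsewhere. Again 3 members carried 98.2% of the gap, and without them HIGH 1 and HIGH 2 had 2366 and 3321 CPM against 2123 to 3135 CPM. The members left out here were chosen for their rise in HIGH 1 and HIGH 2, so these values describe how the sums are made up.

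The ethinylestradiol list had 84 of 107 members tested, with 10 (11.9%) higher and 14 (16.7%) lower at an unadjusted p below 0.05 and a median of -0.05. It summed to 61544 and 53680 CPM in HIGH 1 and HIGH 2, 36093 to 43898 CPM in HIGH 3 to HIGH 5 and 35008 to 41143 CPM at MED. A single member carried this rise, and the rest of the list summed to 10507 and 11578 CPM in HIGH 1 and HIGH 2, below the 14377 to 18886 CPM of the other 8 libraries. That member was also among those that carried the gap of the list high in adult quail.

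The benzo[a]pyrene list had 97 members tested, with 7 (7.22%) higher and 18 (18.6%) lower at an unadjusted p below 0.05 and a median of -0.18. It summed to 6031 and 7243 CPM in HIGH 1 and HIGH 2, below the range of 8698 to 11265 CPM in the other 8 libraries. With the 3 members of the largest fall left out, these libraries were still below the others, at 4960 and 5388 CPM against 5725 to 6954 CPM. The list abundant in adult controls had 100 members tested, with 7 (7%) higher and 18 (18%) lower and a median of -0.29, and its sums overlapped between the levels (571918 to 626145 CPM at HIGH, 562232 to 608857 CPM at MED). HIGH 1 and HIGH 2 had the highest sums, at 626145 and 609432 CPM. With the 1 member of the largest rise left out, they were below the others, at 545582 and 544472 CPM against 549134 to 594202 CPM. That member also had the largest rise in the minnow liver list. Of the early-life and minnow embryo lists, 6 and 12 members passed the filter, and 0 of either had an unadjusted p below 0.05.

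Without HIGH 1 and HIGH 2 the list medians were -0.16 for the abundant list, -0.175 for the list high in adult quail, -0.12 for benzo[a]pyrene, -0.155 for minnow liver, -0.09 for ethinylestradiol and -0.15 for the variable list. Those of the early-life and minnow embryo lists were 0.23 over 7 members and 0.15 over 15. The counts at an unadjusted p below 0.05 were then 6 higher and 8 lower of 100 tested in the abundant list. They were 5 and 8 of 100 in the list high in adult quail and 2 and 9 of 97 for benzo[a]pyrene. Minnow liver had 2 and 8 of 76, ethinylestradiol 6 and 6 of 87, and the variable list 6 and 9 of 89. Over all identifiers in this fit, 1342 of 11462 (11.7%, either direction) had an unadjusted p below 0.05, and the median difference was 0.0029. With all libraries that share was 17.9%, and these lists had 25% to 36.5%.

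**Figure D5:**
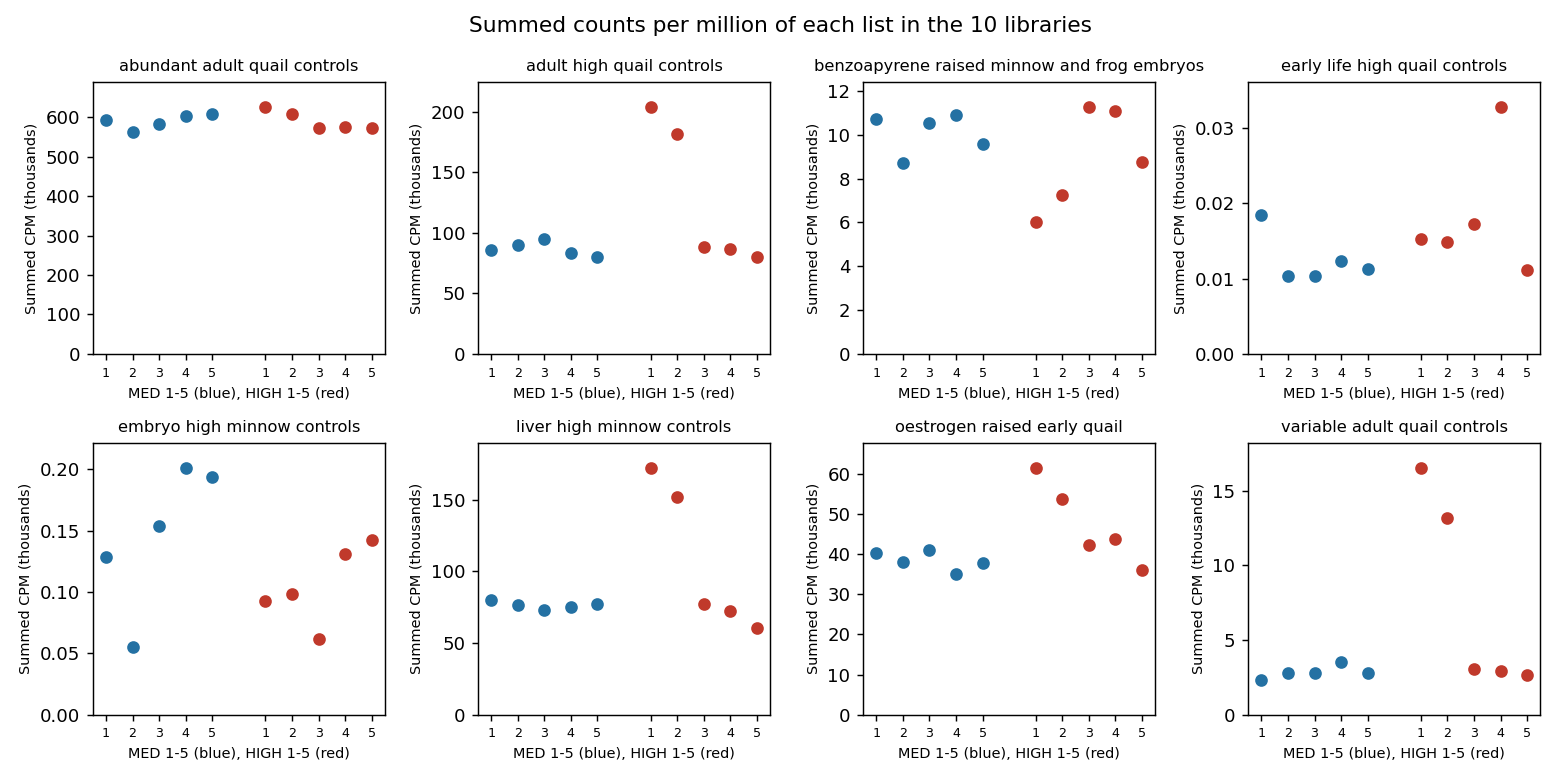
Summed CPM (y axis, from 0) of 8 lists of identifiers taken from other tables in each library (x axis, replicates 1 to 5), blue for MED and red for HIGH. HIGH 1 and HIGH 2 lie above the other 8 libraries for the lists high in adult quail, high in minnow liver, variable in adult controls and raised by ethinylestradiol, and below them for the list raised by benzo[a]pyrene. They also lie above for the abundant list, where HIGH 2 has 609432 CPM and the highest of the other 8 has 608857 CPM. Some members that carry these sums are shared between lists, so the lists are not independent.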

How the data were processed

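Each table deposited by the authors holds the counts of 1 species, stage and chemical as whole numbers, with s2f identifiers in rows. Per the labels' protocols, quail RNA was extracted with Qiagen RNeasy mini kits and sequenced as paired-end reads on an Illumina NovaSeq or HiSeq instrument. The sources used here do not name the aligner, the counter or the reference. Whole values and unequal library totals were the ground for taking them as raw counts. Libraries were grouped by their concentration labels. Columns with no labelled sample were not used here, 37 in the 17 tables read.

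Identifiers with few counts were filtered by filterByExpr, with a minimum count of 10 and a minimum total of 15, and libraries were scaled by TMM factors. HIGH and MED were compared with edgeR 4.0.16 (quasi-likelihood test, two-sided, Benjamini-Hochberg adjustment over all identifiers tested) in R 4.3.3. limma 3.58.1 and DESeq2 1.42.0 were alternatives. An identifier was called at an adjusted p below 0.05. CPM of named identifiers is scaled by TMM factors, and summed CPM of lists is scaled by the total count alone. The TMM factors came from the fluoxetine table alone for its own libraries. For the named identifiers in the other 86 adult libraries they came from the fit over all adult tables. Library values were compared by exact permutation over 252 splits. The main edgeR fits, and for HIGH against MED also limma-voom, DESeq2 and a replicate block, were run on simulated counts. The simulated libraries were drawn independently with the same dispersion for every identifier. These runs thus do not cover a pair of libraries as alike as HIGH 1 and HIGH 2. Identifiers were named by a fixed rule: the 2 higher and the 2 lower with the smallest p. The lists came from libraries of other tables, and members and lists were chosen with earlier results of these data known. Alternatives that leave out both HIGH 1 and HIGH 2, or the pb table, were chosen after seeing the data.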

Additional observations from a re-analysis of the deposited data

Results flagged for a closer look

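Of 36 groups of 5 libraries examined for a single library far from the rest, where chance gives about 1 in 20, 5 held one by Dixon's ratio of the gap to the range. The total count of MED 4, 49078234, lay far above the other MED libraries (next 19890212, ratio 0.794). MED 4 also lay apart on the second principal component, at 3.93 against -7.83 for the nearest MED library (ratio 0.720). The level of s2f_0004971002 in MED 5, 21.4 CPM, lay above the other MED libraries, at 19.8 to 20.1 CPM (ratio 0.790). The list high in early-life quail summed to 32.8 CPM in HIGH 4 (next 17.3, ratio 0.718) and 18.5 CPM in MED 1 (next 12.3, ratio 0.756). HIGH 1 and HIGH 2 were not found in this way, because each has the other as its near neighbour.

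The difference between HIGH and MED with fluoxetine differed from the mean of the other 7 adult quail chemicals for 177 identifiers (edgeR). The count was 3 without HIGH 1 and HIGH 2 and 90 without the pb table. Among the named identifiers the difference of log2 differences was 1.40 for s2f_0002504006, -1.15 for s2f_0009612002 and -0.52 for s2f_0004971002. None of these was called without HIGH 1 and HIGH 2 (edgeR adjusted p = 0.331, 0.102 and 0.0612).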

How the results depend on the processing

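The edgeR count of 0 calls between HIGH and MED stayed 0 with RLE or upper-quartile factors, no filter, a minimum count of 50 and limma-voom. It was 435 with DESeq2, 172 with the shared spread, 0 to 1 leaving out 1 library, and 1, 154 (DESeq2) and 2 (shared spread) without HIGH 1 and HIGH 2. The count against the other chemicals, 177, was 366 with DESeq2, 90 without the pb table, 20 to 412 leaving out 1 library and 3 without HIGH 1 and HIGH 2. The count between stages, 0, was 126 with DESeq2, 0 to 48 leaving out 1 library and 1 without HIGH 1 and HIGH 2. Identifiers with HIGH wholly below MED, 277, were 183 at a minimum count of 50. With 3 HIGH libraries, where separation needs fewer libraries, 471 lay above and 425 below. The cause of these shifts was not tested.

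Leaving out 1 library, the difference in total count ran from -8234000 to 958500, its sign turning without MED 4. The difference in identifiers at 1 CPM or more ran from 116.5 to 237.2, in the share of the 10 leading identifiers from 0.440 to 3.47 percentage points, on PC1 from 10.6 to 26.8 and on PC2 from 13.9 to 20.02. Each component was turned to match its scores over all libraries, so the PC1 and PC2 ranges do not test a direction. The 4 named identifiers kept their sign in all 21 alternatives each, with adjusted p from 1.78e-07 (DESeq2) to 0.612. They were chosen by the smallest p in these same libraries, and their levels do not overlap. A kept sign thus describes them and tests nothing. The list medians moved by more than the spread between libraries for the variable list without HIGH 3 (-0.17) and, without HIGH 1 and HIGH 2, for benzo[a]pyrene (-0.12) and minnow embryo (0.15, a turn of sign). With the shared spread and without HIGH 1 and HIGH 2, the ethinylestradiol (-0.13) and minnow embryo (0.17) medians moved as well.

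Same-numbered HIGH and MED libraries deviated from their level means with correlations of 0.207, -0.0778, -0.0722, 0.105 and -0.0611. Pairs with different numbers were not taken, so these values do not settle whether replicate numbers pair the libraries. A replicate block gave 0 calls between levels (1749 at an unadjusted p below 0.05), 34 against the other chemicals and 0 between stages.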
